A study of Arabidopsis thaliana with 12 samples.

Results

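The 10 genes described here act in the growth of root hairs in Arabidopsis thaliana. They were chosen by gene identifier, with earlier results of these data known, 3 as transcription factors and 7 as genes that act downstream of them, out of 33602 annotated genes listed for all lines. Poly(A) RNA was sequenced from pools of whole 10-day-old seedlings grown on vertical plates, in 4 lines with 3 biological replicates each, to ask whether loss of DOA10 ubiquitin ligases resembles loss of N-terminal acetylation. Each value is therefore that of a whole seedling, of which root hair cells are a small share, and fewer hair cells cannot be told apart from less RNA per hair cell.

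The 4 lines were Col-0, which is the wild type, and 3 lines derived from it. Atdoa10a/b RNAi 4-2 carries a T-DNA insertion in AtDOA10A and an RNAi construct against AtDOA10B, and is 1 transgenic line of its kind. The line amiNAA10 carries an artificial microRNA against NAA10, the catalytic subunit of the N-terminal acetyltransferase NatA, and naa20 is a mutant of NAA20, the catalytic subunit of NatB. No line was treated with any agent.

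A root hair is a tubular outgrowth of 1 epidermal cell that extends at its tip. RHD6 and its relatives of the RSL family, all basic helix-loop-helix transcription factors, act after the patterning genes have set which epidermal cells become hairs: RHD6 acts first and starts the hair, and RSL2 and RSL4 act after it and set how long the hair grows. The factors turn on genes whose products loosen and rebuild the wall of the growing tip, supply its membrane and make reactive oxygen there. A promoter motif called the root hair element is bound by RSL proteins.

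The factors were RHD6 (AT1G66470, chr1:24795214-24797015), RSL2 (AT4G33880, chr4:16239363-16241169) and RSL4 (AT1G27740, chr1:9654475-9656089). Of the downstream genes, EXPA7 (AT1G12560, chr1:4276505-4277969) and EXPA18 (AT1G62980, chr1:23331563-23333246) encode expansins, which loosen the wall. PRP1 (AT1G54970, chr1:20504901-20506504) and PRP3 (AT3G62680, chr3:23182722-23184042) encode proline-rich wall proteins, and LRX1 (AT1G12040, chr1:4069992-4072681) encodes a leucine-rich repeat extensin. COW1 (AT4G34580, chr4:16515102-16518746) encodes a phosphatidylinositol transfer protein needed for tip growth, and RHD2 (AT5G51060, chr5:20757199-20762461) the NADPH oxidase of the hair tip. All coordinates are those of RefSeq's annotation of TAIR10.1.

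The promoters of the members were read for the root hair element, since RSL proteins bind it. The window ran from 500 bases before the annotated gene start to 50 bases after it, on both strands, and the consensus spans 16 or 17 bases. It was present in 5 of the 7 downstream genes and in 0 of the 3 factors, against 431 of 27443 protein-coding genes (1.57%). Of the lists described further on, 3 of 22 other hair wall genes (13.6%), 1 of 16 tip growth genes (6.25%) and 1 of 23 markers of other root tissue (4.35%) held it. The consensus was worked out on promoters of root hair genes, so its presence in such genes is no independent finding. No match in COW1, RHD2 or the factors says only that these letters are not in their windows, and no other motif was searched. The matches are given 5′ to 3′ on the strand of the gene, from RefSeq's TAIR10.1, with the element in capitals. In PRP1, PRP3 and LRX1 it lies on the opposite strand, so that its reverse complement is what is read here.
EXPA7 (chr1:4276420-4276449): aaaaaggATAGTGATCCGCACGTAgccacc
EXPA18, upstream (chr1:23331516-23331545): caaaacaAACATGAACGCACGTCcattact
EXPA18, after the start (chr1:23331561-23331590): ttctttcATAGTGTTTCTCACGTTgaaacc
PRP1 (chr1:20504765-20504794): tcttttaATCGTGCATAACACTATtacaat
PRP3 (chr3:23182548-23182577): gtttttgATCGTGCATTACACTTAggtatg
LRX1 (chr1:4069892-4069921): ctctaggAACGTGCGTCCAAGTTtgaggaa
The elements ahead of a start began between 40 bases (EXPA18) and 167 bases (PRP3) before it, and the other element of EXPA18 began at base 6 of the gene.

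The deposited tables give 1 mean of normalized counts per line and gene. Such a mean is the sum of 3 whole library counts, each multiplied by a step of its own library, and the whole counts could be recovered from it: for all 40 means of the members exactly 1 set of 3 counts gave the mean. The recovered libraries are called a, b and c in the order of their size factors, since they cannot be matched to the replicate numbers. Recovered library counts of the members lay between 15 and 764. The values below, called scaled counts, are these counts divided by the size factor of the library and by a factor that puts the median gene of each line on the level of Col-0. The sum of the means over annotated genes was between 20335644 (Col-0) and 21636449 (naa20). It is a normalized total per line and not the depth of any library. Differences between lines were tested with limma on the log2 counts of all 12 libraries, over 14957 genes with an average of at least 10 scaled counts, and a gene was called at a Benjamini-Hochberg adjusted p under 0.05. The test was chosen after the files were seen.

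The libraries were checked against the genes the lines target. The mean for AtDOA10A was 841 in the RNAi line and 2272 in Col-0, and that for NAA10 was 123 in amiNAA10 and 885 in Col-0. AtDOA10B was higher in the RNAi line than in Col-0, by 0.86 on the log2 scale, and NAA20 was higher in naa20 by 1.27 (limma, adjusted p = 1.05e-06 and 7.49e-09). Since NAA20 was higher and not lower in it, naa20 stands here for the group labelled naa20. Likewise the count for AtDOA10B was not reduced in the RNAi line, and reads of the RNAi construct cannot be told apart from those of the gene. The paper reports reduced AtDOA10B mRNA in this line, by RT-qPCR with primers on either side of the targeted sequence. The Col-0 libraries are those submitted with the RNAi line, and the controls submitted elsewhere for amiNAA10 and naa20 were not used. A difference of amiNAA10 or naa20 from Col-0 therefore cannot be told apart from a difference between sets of libraries. The lines amiNAA10 and naa20 were also compared with each other, although the labels do not say whether their libraries were produced together. The labels give no batch for any library.

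Per kilobase of exon, PRP3 was the most abundant member in Col-0, at 408 scaled counts, and RSL4 the least, at 35.4. The other factors were at 47.6 (RHD6) and 88.8 (RSL2). The downstream genes other than PRP3 ran from 79.4 (PRP1) to 207 (EXPA7). The factors thus sat at the low end in Col-0, with RSL2 inside the lower part of the range of the downstream genes. In RefSeq's annotation, EXPA7 overlaps a neighbour on the opposite strand by 23 bases and EXPA18 by 46 bases. How reads from there were counted is not known. The coding sequences of EXPA7 and EXPA18 were 75.0% identical and those of PRP1 and PRP3 83.3%, with no identical run longer than 33 bases.

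In naa20, 9 of the 10 members were lower than in Col-0 and RHD6 was not, and every library of naa20 was below every library of Col-0 for those 9. Called lower were RSL2, RSL4 and all 7 downstream genes, with the smallest log2 difference in RHD2 (-0.48) and the largest in PRP1. Of all 14957 genes tested, 14.3% were called lower and 12.4% higher, and 21.1% had every naa20 library below every Col-0 library. By the ratio of the deposited means, 8 members were lower by 1.5-fold or more, all but RHD6 and RHD2, and 0 were higher. The same ratio put 8.00% of genes lower and 5.42% higher.

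RHD6, the earliest-acting factor, stood at 68.8, 87.8 and 46.9 scaled counts in Col-0 (libraries a, b and c) and at 76.4, 103.8 and 70.7 in naa20. The groups overlapped, and the difference of 0.32 ± 0.21 (SE) on the log2 scale did not pass the test (limma, adjusted p = 0.276). Its 95% interval ran from -0.12 to 0.75. RHD6 was the only factor without a call in naa20 against Col-0.

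RSL2 stood at 100.5, 158.4 and 108.2 in Col-0 and at 30.7, 56.1 and 30.2 in naa20. The highest naa20 library was thus below the lowest Col-0 library. RSL2 fell by 1.67 ± 0.26 (SE) on the log2 scale, 3.18-fold (limma, adjusted p = 8.55e-05).

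RSL4 stood at 50.7, 56.5 and 34.7 in Col-0 and at 15.8, 14.0 and 17.0 in naa20, from recovered counts of 15 to 18. The 3 naa20 libraries agreed closely and were all below Col-0. RSL4 fell by 1.55 ± 0.29 (SE), 2.94-fold (limma, adjusted p = 0.000492).

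Among the wall proteins, PRP1 had the largest fall of the 10 members. It stood at 115, 121 and 90.8 in Col-0 and at 22.8, 28.1 and 30.2 in naa20. It fell by 2.00 ± 0.23 (SE) on the log2 scale, 4.00-fold (limma, adjusted p = 2.98e-06). PRP3 stood at 526, 584 and 384 in Col-0 and at 198, 265 and 252 in naa20. It fell by 1.06 ± 0.17 (SE) (limma, adjusted p = 0.00017). The 95% intervals of PRP3 and PRP1, -1.42 to -0.70 and -2.47 to -1.53, did not overlap, although the difference between the genes was not tested. LRX1 stood at 229, 292 and 234 in Col-0 and at 105, 142 and 125 in naa20, and fell by 1.02 ± 0.17 (SE) (limma, adjusted p = 0.000173).

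The expansins fell too. EXPA7 stood at 224, 289 and 182 in Col-0 and at 111, 148 and 116 in naa20, and fell by 0.87 ± 0.16 (SE) (limma, adjusted p = 0.000534). EXPA18 stood at 185, 248 and 180 in Col-0 and at 94.8, 131 and 134 in naa20, and fell by 0.77 ± 0.16 (SE) (limma, adjusted p = 0.00105). Neither gene had a naa20 library as high as its lowest Col-0 library.

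COW1, the phosphatidylinositol transfer protein gene, stood at 186, 217 and 142 in Col-0 and at 84.3, 106 and 99.99 in naa20, and fell by 0.90 ± 0.18 (SE) (limma, adjusted p = 0.000874). RHD2, the NADPH oxidase gene, had the smallest fall. It stood at 447, 533 and 416 in Col-0 and at 320, 370 and 307 in naa20, and fell by 0.48 ± 0.10 (SE), 1.40-fold (limma, adjusted p = 0.00128). The plot of values by library shows these groups side by side.

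**Figure D1:**
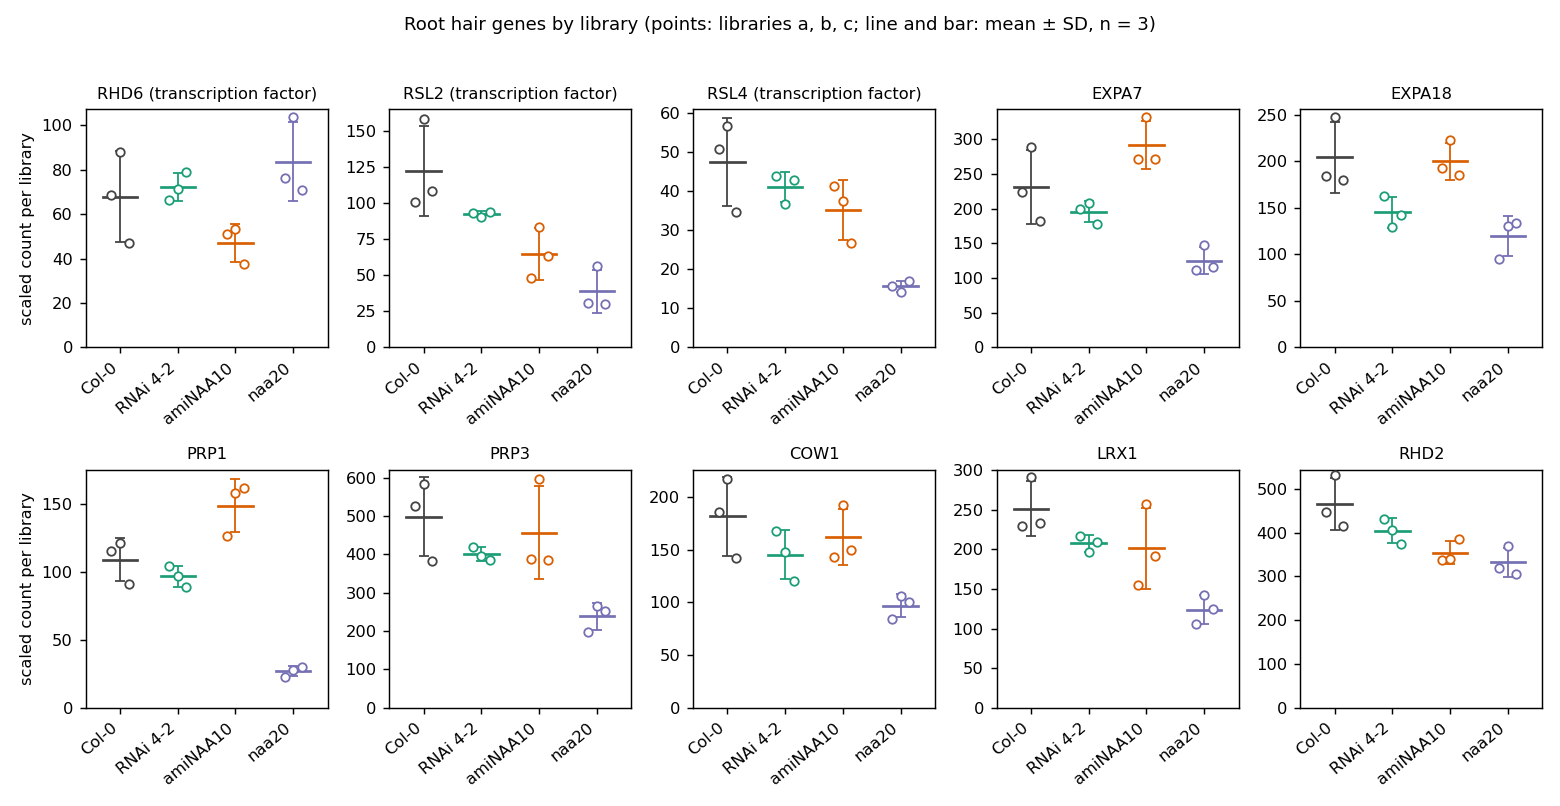
Scaled counts of the 10 members (vertical axis, linear from 0) in the 4 lines (horizontal axis). Points are the 3 libraries, and the line and bar are their mean ± SD. The 3 naa20 libraries lie below all Col-0 libraries for every member but RHD6, as for RSL4 with 14.0 to 17.0 against 34.7 to 56.5.

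The fall in naa20 was also measured against amiNAA10, the other acetyltransferase line. In this comparison 8 members were lower in naa20, RHD6 was higher and RHD2 was not called. Of all genes tested, 20.9% were called lower in naa20 and 19.3% higher. By the ratio of means 8 members were lower by 1.5-fold or more and 1 was higher, where 10.0% of genes were lower and 8.78% higher.

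The factors did not move together between the 2 lines. RHD6 stood at 51.1, 53.1 and 37.4 in amiNAA10, below all naa20 libraries, and was higher in naa20 by 0.81 ± 0.22 (SE) (limma, adjusted p = 0.00533). RSL4 stood at 41.2, 37.5 and 26.6 in amiNAA10 and differed by -1.13 ± 0.29 (SE) in naa20 (limma, adjusted p = 0.00405). RSL2 stood at 48.1, 83.6 and 63.1 in amiNAA10, and its range overlapped that of naa20. It differed by -0.75 ± 0.27 (SE) in naa20 (limma, adjusted p = 0.0335), a call that was lost without amiNAA10 library b or c or without naa20 library a or c. Its adjusted p was then between 0.0606 and 0.145, and its log2 difference between -0.75 and -0.55.

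Of the downstream genes, PRP1 again differed the most. It stood at 127, 158 and 162 in amiNAA10 and differed by -2.44 ± 0.22 (SE) in naa20, 5.43-fold lower (limma, adjusted p = 8.47e-08). EXPA7 stood at 272, 332 and 271 in amiNAA10 and differed by -1.23 ± 0.15 (SE) in naa20 (limma, adjusted p = 3.77e-06). PRP3, EXPA18, COW1 and LRX1 were called lower too, with log2 differences of -0.92, -0.76, -0.74 and -0.68. RHD2 differed by -0.09 ± 0.10 (SE), with a 95% interval of -0.30 to 0.11 (limma, adjusted p = 0.479).

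**Figure D2:**
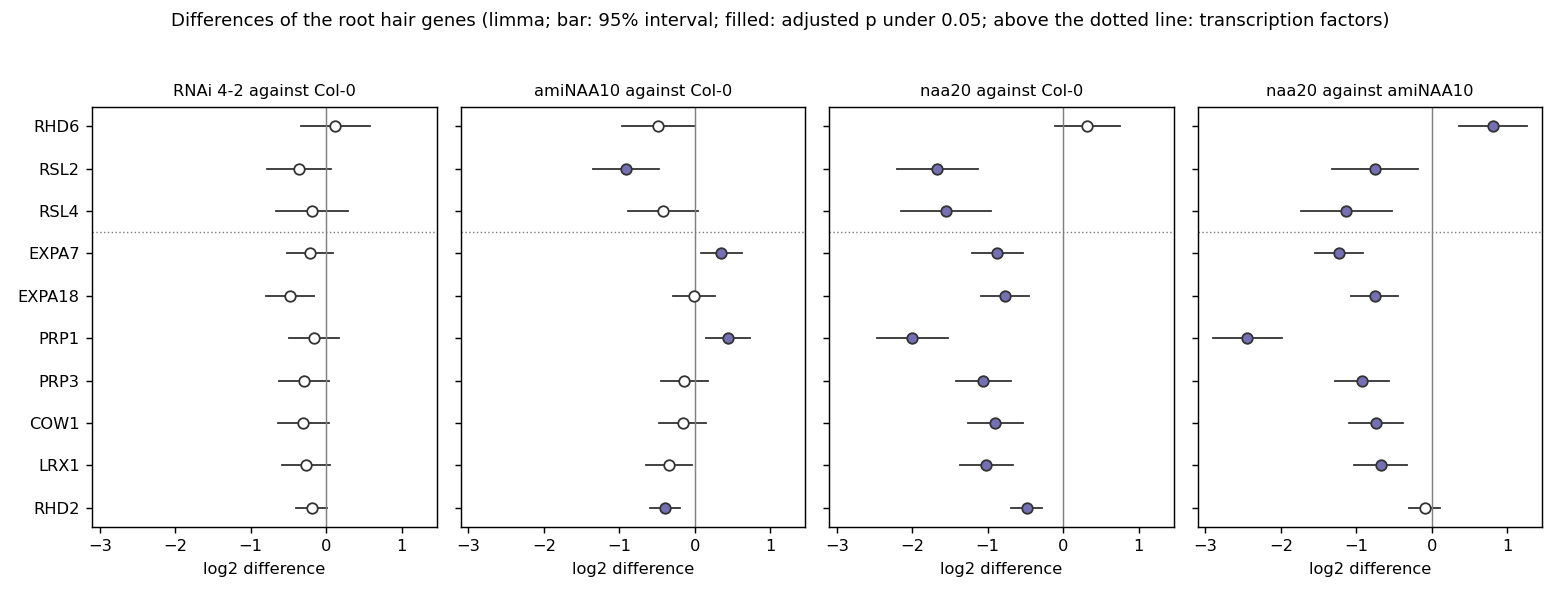
Log2 differences (horizontal axis) of the 10 members in 4 comparisons, from limma. Bars are 95% intervals, filled points have an adjusted p under 0.05, and the 3 factors stand above the dotted line. In naa20 against Col-0, 9 points are filled to the left of 0, and none is filled for the RNAi line.

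In amiNAA10 against Col-0, the members went in different directions and few calls were firm. RSL2 and RHD2 were called lower and EXPA7 and PRP1 higher, while 18.9% of all genes were called lower and 17.9% higher, so that the 2 of 10 members called in each direction were close to the share of all genes. By the ratio of means 1 member, RSL2, was lower by 1.5-fold or more and 0 were higher, against 9.37% and 6.07% of all genes.

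RSL2 fell by 0.91 ± 0.21 (SE) and was lower in every amiNAA10 library than in any Col-0 library (limma, adjusted p = 0.002). RHD2 stood at 338, 341 and 386 in amiNAA10, again with no overlap, and fell by 0.39 ± 0.10 (SE) (limma, adjusted p = 0.00342). Without the centring of the lines, this difference was -0.18 and the call was lost (adjusted p = 0.126).

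PRP1 was higher in amiNAA10 by 0.44 ± 0.14 (SE) with no overlap between the groups, and EXPA7 by 0.35 ± 0.13 (SE) with overlap (limma, adjusted p = 0.0166 and 0.04). Without Col-0 library c, the differences were 0.32 (PRP1) and 0.20 (EXPA7), and neither passed (adjusted p = 0.0944 and 0.239). PRP1 was also not called without amiNAA10 library c (0.38, adjusted p = 0.064), nor EXPA7 without Col-0 library a or amiNAA10 library b (adjusted p = 0.106 and 0.157). Conversely RHD6 and RSL4, at -0.49 and -0.42 with adjusted p = 0.1 and 0.151, passed as lower when Col-0 library c was left out (-0.72 and -0.62, adjusted p = 0.0166 and 0.0407). LRX1 (-0.34, adjusted p = 0.0688) and PRP3 (-0.14, adjusted p = 0.495) passed as lower without amiNAA10 library b, at -0.54 and -0.35 (adjusted p = 0.00416 and 0.042).

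EXPA18 (-0.01) and COW1 (-0.16) were not called under any setting tried. Without the centring of the lines, EXPA18, PRP3 and COW1 had ratios of means above 1, at log2 values of 0.18, 0.08 and 0.04, so no direction is given for them in amiNAA10.

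In the RNAi line, no member was called (limma, 1 member at an unadjusted p under 0.05), against 1.32% of all genes called lower and 1.22% called higher. By the ratio of means, 0 members were lower or higher by 1.5-fold or more, against 2.32% and 1.45% of all genes. The member nearest to a call was EXPA18, at 163, 130 and 142 scaled counts in the RNAi line, each below the lowest Col-0 library. Its difference of -0.48 ± 0.15 (SE) had an unadjusted p of 0.00495 and an adjusted p of 0.102. The log2 values of the other downstream genes lay between -0.31 (COW1) and -0.16 (PRP1).

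Of the factors in the RNAi line, RSL2 stood at 93.5, 90.3 and 94.2, all below the Col-0 libraries, with a difference of -0.36 and a 95% interval of -0.78 to 0.06. RSL4 stood at 43.8, 36.7 and 42.7, and RHD6 at 66.2, 71.4 and 78.9, both within the range of Col-0. The 95% intervals of all 3 factors include 0, and that of RSL4 ran from -0.66 to 0.30.

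Compared with the factors, the downstream genes kept no fixed ratio. Within each library the geometric mean of the 7 downstream genes was divided by each factor in turn. Over RHD6 this ratio was 3.30 to 4.39 in Col-0 and 1.30 to 1.75 in naa20, without overlap. Over RSL4 it was 4.76 to 5.93 in Col-0 and 6.61 to 9.59 in naa20, again without overlap. Over RSL2 it was 1.83 to 2.40 in Col-0 and 2.40 to 4.11 in naa20, so that the groups met. In amiNAA10 it was 4.15 to 6.17 over RHD6, 3.28 to 4.42 over RSL2 and 5.15 to 8.68 over RSL4, of which only that over RSL2 lay clear of Col-0. In the RNAi line it was 2.38 to 3.27 over RHD6, below Col-0, and 1.99 to 2.32 and 4.39 to 5.42 over RSL2 and RSL4, with overlap. These ratios are descriptions and were not tested. In naa20, the log2 differences of the factors were -1.67 (RSL2), -1.55 (RSL4) and 0.32 (RHD6). Their median was thus the value of RSL4, and RHD6 did not fall. The median over the 7 downstream genes was -0.90, beside -0.02 over all genes tested.

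**Figure D3:**
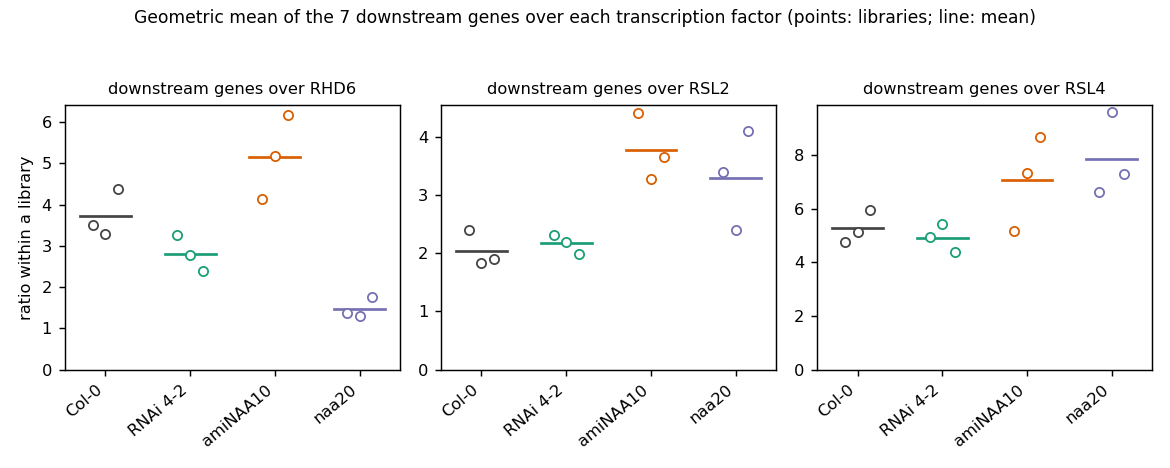
Geometric mean of the 7 downstream genes divided by each factor (vertical axis, linear from 0) in each library of the 4 lines (horizontal axis). Points are libraries and the line is their mean. Against RHD6 the naa20 libraries are lowest, at 1.30 to 1.75, and against RSL4 they are 6.61 to 9.59.

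Libraries of a line differed in the members together. Col-0 library b was the highest of the 3 in 10 of 10 members and library c the lowest in 8. amiNAA10 library b was the highest in 7. The summed level of 18 markers of root tissue other than hairs moved likewise, with 3438 in Col-0 library b against 2709 and 2581, and 3048 in amiNAA10 library b against 2493 and 2518. Their part in the spread was not tested.

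Between the lines the same markers ran from 2581 to 3438 in Col-0 and from 2378 to 2670 in naa20, with overlap, where the 7 downstream members ran from 1628 to 2283 and from 938 to 1189. Of 15 markers tested 2 were called lower in naa20, 1 higher and 12 were not called, with a median log2 difference of -0.08. Among 21 markers with an average mean of at least 10, the ratio of means put 2 lower by 1.5-fold or more and 3 higher. Their median was -0.11, and single markers ran from -0.68 to 1.58. The 2 lower ones, CYP86A1 and ASFT, both at -0.68, were too abundant for library counts and so were not tested. By the means, none of the 23 markers was at 0 in naa20, and by library ESB1, a marker of low level, stood at 6.14, 5.61 and 0 there and at 0.906, 0 and 10.2 in Col-0. With the lines centred on these markers, 9 members were again called lower in naa20. By the ratio of means, this centring moved the median of the members only from -0.96 to -0.86. So small a shift could hardly change the calls, and whether the share of root tissue had a part was not tested. Of 10 photosynthesis genes, which report on shoot tissue and were too abundant for library counts, the median log2 ratio of means was -0.77 in amiNAA10, -0.37 in naa20 and 0.01 in the RNAi line. Their part in the differences of the members was not tested.

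A wider list of 56 other root hair genes, of which 42 could be tested, was put beside the members. In naa20 against Col-0, 28 fell, 2 rose and 12 were not called, beside 14.3% and 12.4% of all genes called lower and higher. The largest share was that of 22 other wall genes, of which 19 were tested and all 19 fell, with a median log2 difference of -1.17. Among 21 with an average mean of at least 10, the ratio of means put 18 lower by 1.5-fold or more and 0 higher. CSLD3 and SHV3, too abundant for library counts and so not tested, stood at 0.14 and -0.29 by that ratio. XTH26, an enzyme that cuts and rejoins xyloglucan, fell by 1.84 ± 0.52 (SE), EXT12, an extensin, fell by 1.75 ± 0.19 (SE), and the extensin-family gene AT4G08410 fell by 1.71 ± 0.22 (SE) (limma, adjusted p = 0.0134, 1.83e-06 and 1.51e-05). XTH26 was of low level, at 6.14, 6.55 and 6.60 scaled counts in naa20 and at 16.3, 43.4 and 20.4 in Col-0. In the direct comparison, 18 of the 19 wall genes were lower in naa20 than in amiNAA10, beside 20.9% of all genes.

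Genes of tip growth and signalling were the next list. Of 9 tested in naa20 against Col-0, 6 fell and 1 rose, with a median of -0.46, beside 14.3% and 12.4% of all genes. The other genes of this list were too abundant for library counts. Over all 16, the ratio of means put 4 lower by 1.5-fold or more and 0 higher, with a median of -0.22. The log2 differences of ERU and PERK13, receptor-like kinases, were -0.83 and -0.69, and that of CNGC14, a calcium channel, was -0.80 (limma, adjusted p = 0.00206, 0.00186 and 0.0201). Against amiNAA10, 1 of the 9 was lower and 1 was higher, beside 20.9% and 19.3% of all genes.

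Another list held genes that set which epidermal cells become hairs. Of 10, 2 fell in naa20 and 1 rose, with a median of -0.09, beside the 14.3% and 12.4% of all genes called lower and higher. GL2, a homeodomain factor that represses hair fate, rose by 0.74 ± 0.13 (SE) and TRY, a small MYB protein, fell by 1.19 ± 0.22 (SE) (limma, adjusted p = 0.000274 and 0.000433). GL2 was also higher in amiNAA10, at 0.54 (limma, adjusted p = 0.00279), and was not called in the RNAi line, at -0.29 (limma, adjusted p = 0.359). TRY was also lower in amiNAA10, at -1.65, and in the RNAi line, at -0.82 (limma, adjusted p = 1.91e-05 and 0.0367). These comparisons share the Col-0 libraries. LRL3, a basic helix-loop-helix factor of hair growth, fell by 1.09 ± 0.20 (SE) in naa20 (limma, adjusted p = 0.000385), and the 2 other factors tested did not pass.

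**Figure D4:**
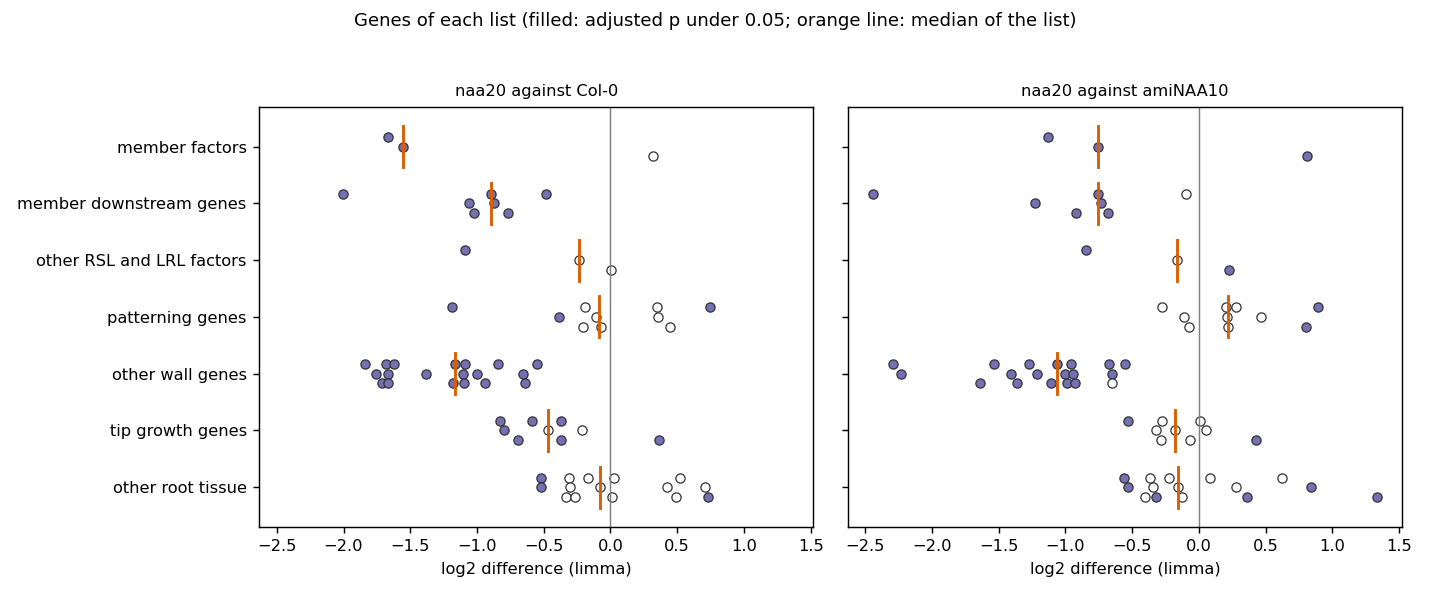
Log2 differences (horizontal axis) of the genes of each list in naa20 against Col-0 and against amiNAA10. Points are the tested genes, filled where the adjusted p is under 0.05, and the orange line is the median of the tested genes of a list. The other wall genes lie at a median of -1.17 in the first comparison, and the markers of other root tissue at -0.08. Of the 15 markers tested there, 2 were called lower and 1 higher, so their median does not stand for each marker.

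In amiNAA10, 10 of the 42 wider genes fell and 5 rose, beside the 18.9% and 17.9% of all genes called lower and higher there. XUT1, which acts on xyloglucan, fell by 1.02 ± 0.23 (SE) and EGL3, a patterning factor, fell by 0.96 ± 0.16 (SE) (limma, adjusted p = 0.00188 and 0.000107). In the RNAi line 4 of 42 fell and 0 rose, beside 1.32% and 1.22% of all genes called lower and higher. They include RHS12, a predicted pectin methylesterase, and the peroxidase gene PRX73, at -0.76 and -0.58 (limma, adjusted p = 0.0109 and 0.0335).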

How the data were processed

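Poly(A) RNA of 12 pools of seedlings, 3 biological replicates in each of 4 lines, was sequenced. Per the labels, the submitters ran HTSeq 0.6.1, DESeq 1.18.0, TopHat2 2.0.12 and Bowtie2 2.2.3 with TAIR10, whereas the paper's methods give HISAT2, RPKM, DESeq2 and edgeR, so which aligner was used is unclear. The deposited values are a signal that the authors made by scaling every library's gene counts with a size factor and taking the average per line. The tables also hold the authors' own fold changes, p-values and calls, which were not used. Another 2 columns, of Col-0 libraries from another series, were not used in any step.

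The genes, lists and rules were chosen with earlier results of these data known. Genes named were the 10 members, the 4 targeted genes and, per wider list and comparison, up to 3 genes with the largest log2 ratio of means among those past 1.5-fold with an average mean of at least 10. Ratios of means were centred on the median of all genes, at log2 values of 0.00, 0.21 and 0.10 for the RNAi line, amiNAA10 and naa20 against Col-0, and -0.10 for naa20 against amiNAA10. The planned design had no test.

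Because each mean is a sum of whole counts times 3 library steps, counts were recovered for means up to 1000, with 1 solution for 20204 of 20224 such genes in Col-0, 20046 of 20056 in the RNAi line, 19567 of 19596 in amiNAA10 and 19638 of 19642 in naa20. All sets of 3 counts were searched for means up to 150 and for the members. For other means, only sets with each library within 60% of the mean were searched, so 1 solution there means 1 within that window. Genes whose mean in each line was 0 or had 1 solution, 28499 of them, entered the library values, and non-annotated transcripts were left out. The tables had been scaled separately, so the libraries were put on 1 scale by the line factor above, and size factors computed jointly over the 12 libraries were an alternative. Weighted log2 values of the counts (voom, prior count 0.5) were fitted with limma 3.58.1 in R 4.3.3, with 1 coefficient per line and all lines sharing 1 estimate of the spread. Recovery and test were checked on simulated data. Libraries of a line differed by more than sampling noise, with a mean chi-square per gene between 1.91 and 4.14. Sequences were read with Biopython.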

Additional observations from a re-analysis of the deposited data

How the results depend on the processing

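Of the member counts by the ratio of means, those that moved by over 1.5 times did so with the fold that counted as past, and 1 with the centring. With the smaller fold tried, 2 members were lower in the RNAi line, and 5 were lower and 2 higher in amiNAA10. With the larger, of 2-fold, 0 members were lower in amiNAA10, 5 in naa20, and 3 were lower and 0 higher in naa20 against amiNAA10. Without centring, 1 member was higher in amiNAA10. The tested counts, all of alternatives chosen after seeing the data, changed by over 1.5 times only in amiNAA10 against Col-0: 1 lower without centring, and 1 higher with only the lines compared or with centring on root markers. Leaving out 1 library gave 2 to 4 lower and 0 to 2 higher there. In naa20 against Col-0, no alternative changed the call of any of the 10 members, with RSL4 not tested at an average of at least 50. In naa20 against amiNAA10, only RSL2 changed its call, which left 7 of 8 called lower. It was also lost on root markers (-0.63, adjusted p = 0.0677). The causes of these changes were not tested, beyond the fold itself.

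No paired analysis was possible because the recovered libraries cannot be matched to the replicate numbers. Values rest on 3 libraries per line, and RSL4 in naa20 on 15 to 18 counts. Genes above a mean of 1000 had no library values.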
